A study of Mus musculus with 2 samples.

Results

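The tumour necrosis factor (TNF) superfamily was examined in 2 RNA-seq libraries of mouse heart tissue. The family was taken as the genes whose symbols name TNF superfamily ligands, their receptors, or TRAF proteins, together with the members that carry older symbols such as Tnf, Fas, Ltbr and Cd40lg. This symbol rule took 54 of the 24346 listed genes and used no measured value. One library came from heart labelled HFD-MI and treated with probucol, a cholesterol-lowering antioxidant drug, and the other came from untreated heart with the same HFD-MI label. HFD-MI was read as high-fat diet and myocardial infarction, which both groups share, and both carry the age label day 14, without the event from which the days run. The names of the deposited data of both groups carry the tags HypoE and CM, which the labels do not explain. The labels give neither genotype, strain, sex nor age in weeks, nor the part of the heart, nor whether animals were pooled. With 1 library on each side, every difference compares these libraries, and no p-value between the treatments can be given.

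Members of this family are mostly trimeric ligands, bound to the membrane or shed from it, that cluster receptors on a neighbouring cell. Receptors with a death domain can assemble caspase-activating complexes, while other receptors recruit TRAF adaptors directly and lead to the NF-kappaB transcription factors and to stress kinases. Decoy receptors bind ligands without signalling. After infarction, leukocytes, fibroblasts, endothelial cells and cardiomyocytes all produce or sense members of the family, with TNF and its receptors the best known in the injured heart.

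The files give FPKM, fragments scaled to transcript length and to a library size whose definition is not stated. Levels can be compared between genes within a library. Differences are log2((FPKM probucol + 0.5)/(FPKM untreated + 0.5)), where the added 0.5 understates the difference of low genes, and negative values mean lower with probucol. Genes with a mean of at least 0.5 FPKM over both libraries were measured, which held for 35 of the 54 members and 12882 of all genes. Gene positions are those of RefSeq on GRCm38.p6, a patch release of the assembly also called mm10. The filter fell between Traf3ip3, with a mean of 0.502 FPKM, and Traip, with 0.419 FPKM. Low values fell on steps, by which 1 FPKM over 1 kb of effective transcript length stood for 6.67 fragments in probucol-treated heart and 7.41 in untreated heart, so both had a like depth. Whole fragments could be estimated for 38 members with 1 transcript length and little shared sequence. Their ratios carry exact binomial (Clopper-Pearson) 95% intervals, which cover counting error only and were not adjusted for their number.

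Most measured members were somewhat lower in the probucol library, and few by much. Of the 35, 26 (74.3%) lay below 0, against 49.1% of all measured genes, and their median was -0.24 against 0.01 for all genes. At least 1.5-fold lower were 11 members, against 12.0% of all genes, and 1 was at least 1.5-fold higher, against 5.52%. At the 2-fold limit, 2 members were lower, against 5.14% of all genes, and 1 was higher, against 1.07%. Of the 11, Tnfrsf11b, Tnfrsf22, Tnfsf13b and Traf3ip3 were under 0.5 FPKM with probucol and passed the filter through the untreated library, as did 2.69% of all measured genes, so the filter itself favours their difference. The share at 2-fold lower is close to that of all genes, and the family differed by many small ratios. Tnfsf9 and Tnfrsf22 made up the lower 2, and Tnfsf13 the higher 1. Tnfrsf22, at -1.13, was the last inside the 2-fold limit and Tnfrsf23, at -0.82, the first outside it. Eda2r, at -0.60, was just inside the 1.5-fold limit and Tnfrsf1a, at -0.55, just outside.

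**Figure D1:**
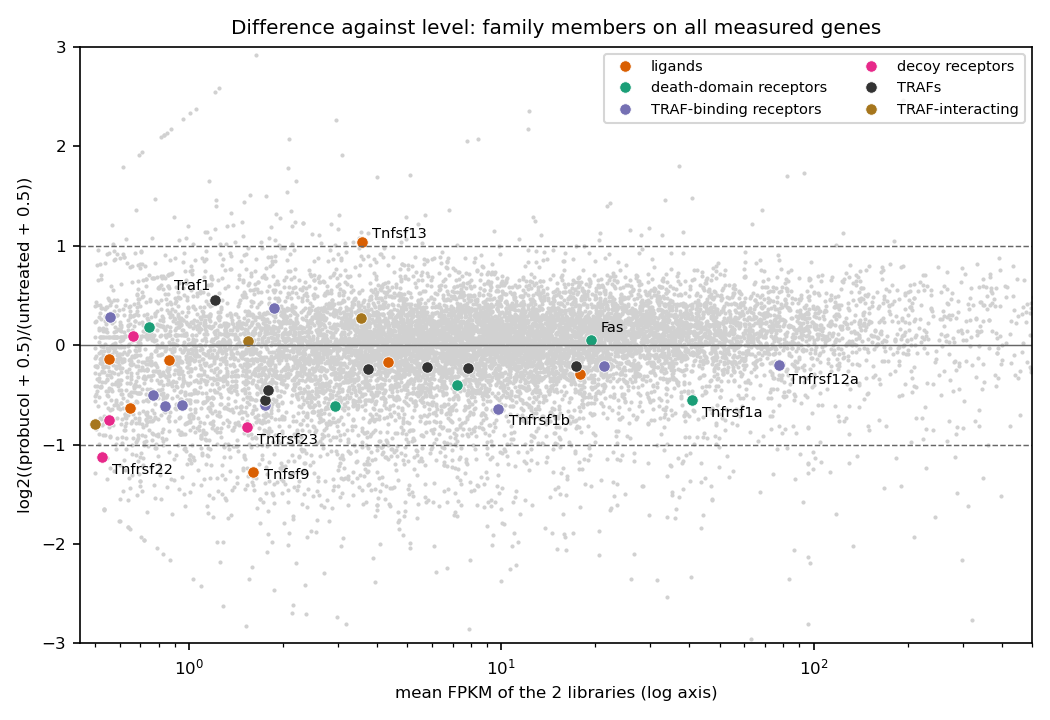
Log2 ratio of probucol over untreated (vertical axis) against the mean FPKM of both libraries (horizontal log axis). Coloured points are the 35 measured members by role and grey points all measured genes, of which 280 lie outside the axes; dashed lines mark 2-fold. Most members sit between 0 and -1, with Tnfsf9 at -1.28 below them and Tnfsf13 at 1.04 above.

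The ratios varied with level. Among the 21 members with a mean of 0.5 to 3 FPKM, the median was -0.55 and 10 (47.6%) were at least 1.5-fold lower. All 3232 genes at that level had a median of -0.12 with 20.1% past the limit. The 10 include Tnfrsf11b, Tnfrsf22, Tnfsf13b and Traf3ip3, which passed the filter through the untreated library. Such genes were 11.4% of all measured members and 2.69% of all measured genes, so the 2 shares are not fully alike. Among the 8 members of 3 to 10 FPKM, the median was -0.22 and 1 (12.5%) was at least 1.5-fold lower. All genes at that level had a median of -0.02 with 11.8% past the limit. Among the 6 members of at least 10 FPKM, the median was -0.21, 5 lay below 0 and 0 passed 1.5-fold. All genes at that level had a median of 0.08, with 40.1% below 0 and 7.46% at least 1.5-fold lower.

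Cell markers differed between these heart samples in the same comparison. Cardiomyocyte transcripts were abundant in both, with Myh6, the adult myosin heavy chain, at 4461 FPKM in probucol-treated heart and 3015 in untreated heart, and the 8 cardiomyocyte markers had a median of 0.44. Each of 12 macrophage markers lay below the 1.5-fold limit with probucol, with a median of -1.56 and a summed level of 1113 FPKM in the probucol library against 3668 in the untreated library. The 7 fibroblast markers summed to 787 FPKM with probucol and 1256 without, with a median of -0.83, and the 6 endothelial markers to 305 in each library. Of 9 T and NK cell markers in the files, 4 were measured, Cd3g was listed at 0 with probucol and Cd3e at 0 without. The measured ones had a median of -1.12, but Cd4, Ncr1 and Nkg7 were under 0.5 FPKM with probucol. They passed the filter through the untreated library, so the filter favours that median. Ncr1 had 1 fragment with probucol and 11 without, and Nkg7 had 2 with probucol and 9 without. Lck, the other measured marker, was at -0.02. Among the B cell markers, Pax5 was listed at 0 in both libraries and Ms4a1 in probucol-treated heart. Fewer cells of a type and less RNA per cell cannot be told apart in such samples. The part of these markers in the family's ratios was not tested.

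A few receptors, a ligand and a TRAF held most of the family's signal. All 54 members summed to 240.6 FPKM in probucol-treated heart and 292.7 in untreated heart. The 6 highest, Tnfrsf12a, Tnfrsf1a, Ltbr, Fas, Tnfsf12 and Traf7, made up 73.3% of it with probucol and 72.3% without. Tnfrsf12a alone, the receptor Fn14 of the ligand TWEAK, held 29.9% with probucol and 28.3% without. The share of Tnfrsf1a was 13.7% with probucol and 16.6% without, so its share differed more than that of the 6 together.

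**Figure D2:**
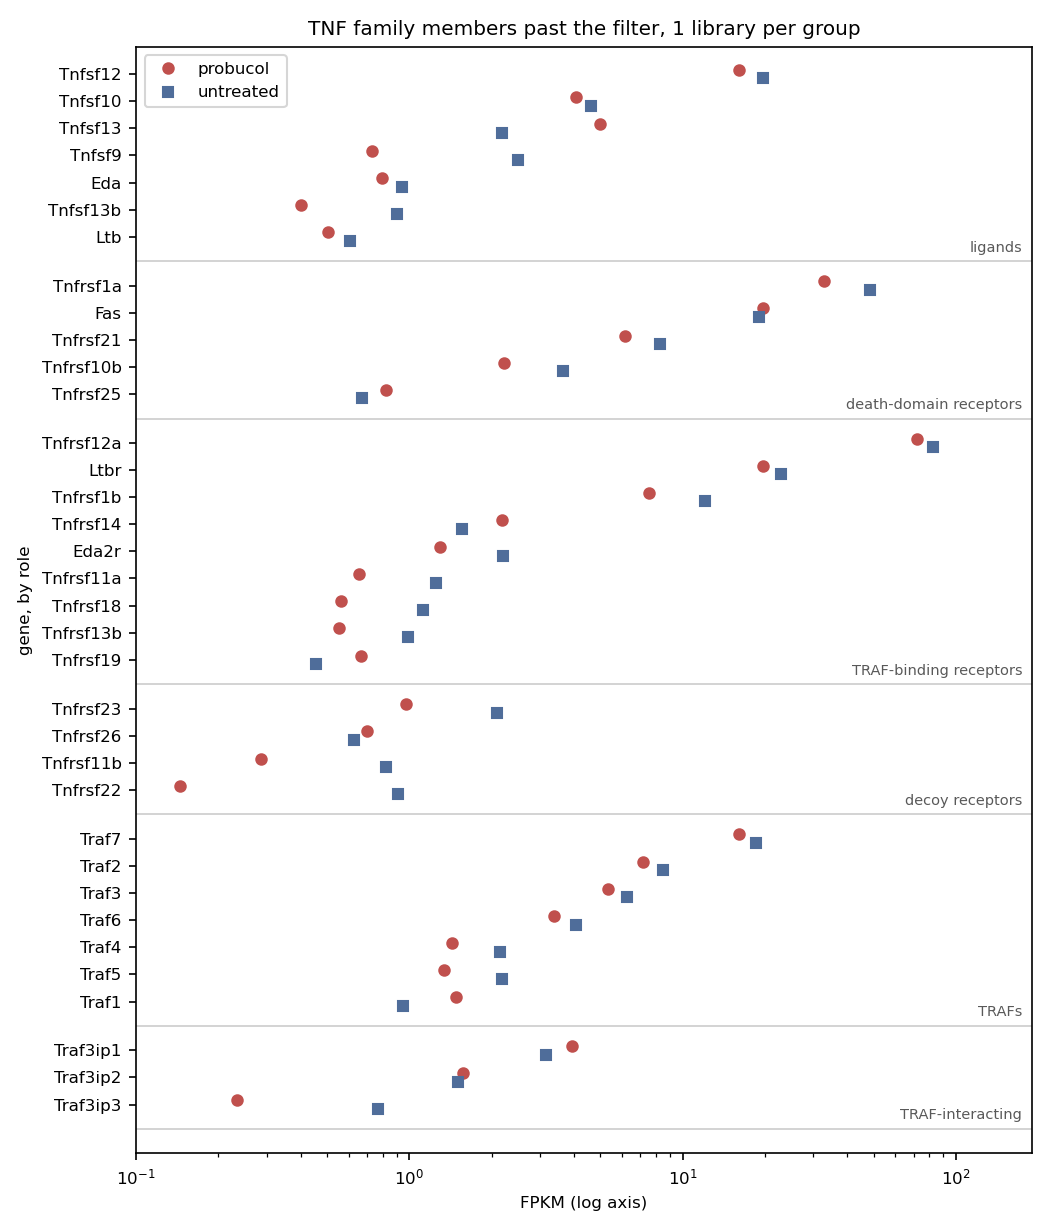
FPKM (log axis) of the 35 measured members in the probucol library (circles) and the untreated library (squares), 1 value each, grouped by role and ordered by level. The receptors Tnfrsf12a and Tnfrsf1a lead, and the circle lies left of the square in 26 of 35 rows.

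Among the ligands, those measured were few and the classical inflammatory ones were at the edge of detection. Of 18 ligands, 7 passed the filter, with a median of -0.17, and 6 (85.7%) lay below 0, against 49.1% of all measured genes. At least 1.5-fold lower were 2 (28.6%) and higher 1, against 12.0% of all measured genes lower and 5.52% higher. Tnfsf12, the ligand TWEAK, was the most abundant, with 16.0 FPKM in probucol-treated heart and 19.8 in untreated heart, a log2 ratio of -0.29. Of its 50-base windows in the annotation, 46.8% also occur in the gene Tnfsfm13, described below, which limits the reading of this level and ratio. Tnfsf10, the ligand TRAIL that engages a death receptor, had 4.07 FPKM with probucol and 4.64 without, from 130 fragments with probucol and 164 without. Its ratio of 0.877 had an interval of 0.694 to 1.12, which includes no difference.

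Tnfsf9, the CD137 ligand of antigen-presenting cells (chromosome 17, 57105287 to 57107758), was the lowest measured member. It had 0.731 FPKM in probucol-treated heart and 2.49 in untreated heart. With the pseudocount this is a log2 ratio of -1.28, or 2.43-fold lower. These values rest on 5 fragments with probucol and 20 without, and the interval of their ratio was 0.0815 to 0.763. Its receptor Tnfrsf9 was under the filter, with 0.0834 FPKM with probucol and 0.299 without. Tnfsf13b, the B cell survival factor BAFF, had 0.401 FPKM with probucol and 0.899 without, at -0.63. Eda, ectodysplasin, had 0.793 FPKM with probucol and 0.938 without. Ltb, the lymphotoxin beta chain, had 0.505 FPKM from 3 fragments with probucol and 0.604 from 4 without.

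The ligand Tnfsf13, known as APRIL, cannot be read on its own. It lies on chromosome 11 next to Tnfsf12, and the gene Tnfsfm13 reads through both, joining exons of Tnfsf12 to exons of Tnfsf13. In the annotation, 57.3% of the 50-base windows of Tnfsf13 transcripts, and 46.8% of those of Tnfsf12, also occur in Tnfsfm13. The junctions are printed because they show where the read-through transcript with 11 exons joins the other genes, and which sequence it shares with each. They are from GENCODE M21 transcripts (GRCm38, minus strand, chromosome 11), with 30 bases on each side of the splice; small letters precede the junction and capitals follow it.
Tnfsfm13: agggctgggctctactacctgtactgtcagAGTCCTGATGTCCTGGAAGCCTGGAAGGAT
Tnfsf12: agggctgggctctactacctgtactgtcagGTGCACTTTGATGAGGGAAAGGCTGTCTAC
Tnfsf13: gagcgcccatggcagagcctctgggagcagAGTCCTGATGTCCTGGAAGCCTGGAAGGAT
The small letters are the same in Tnfsfm13 and Tnfsf12, where the exon ends at base 69687252, and the capitals are the same in Tnfsfm13 and Tnfsf13, where the exon begins at base 69684738. Of the printed junctions, only the first belongs to 1 gene in this annotation, and only to 1 of 3 Tnfsfm13 transcripts, the one with 11 exons. The junctions printed for Tnfsf12 and Tnfsf13 are also part of both Tnfsfm13 transcripts with 13 exons. Those transcripts cross between the genes at another junction, from base 69686957 to base 69685130. It is not printed, and no annotated transcript of Tnfsf12 or Tnfsf13 has it. A fragment inside either shared exon fits more than 1 of the genes.

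Tnfsf13 had 4.99 FPKM in probucol-treated heart and 2.18 in untreated heart, a log2 ratio of 1.04. Tnfsfm13, which the symbol rule does not take, went the other way, with 1.88 FPKM with probucol and 7.53 without, at -1.75. Summed, Tnfsf13 and Tnfsfm13 had 6.87 FPKM with probucol and 9.71 without, at -0.47. All 3 genes together had 22.9 FPKM with probucol and 29.5 without, at -0.36. Within that sum Tnfsf12 held 70.0% in probucol-treated heart and 67.1% in untreated heart. Tnfsf13 held 21.8% with probucol and 7.39% without, and Tnfsfm13 8.21% with probucol and 25.6% without. The higher value of Tnfsf13 is therefore uncertain, since the sum with its read-through partner was lower.

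**Figure D3:**
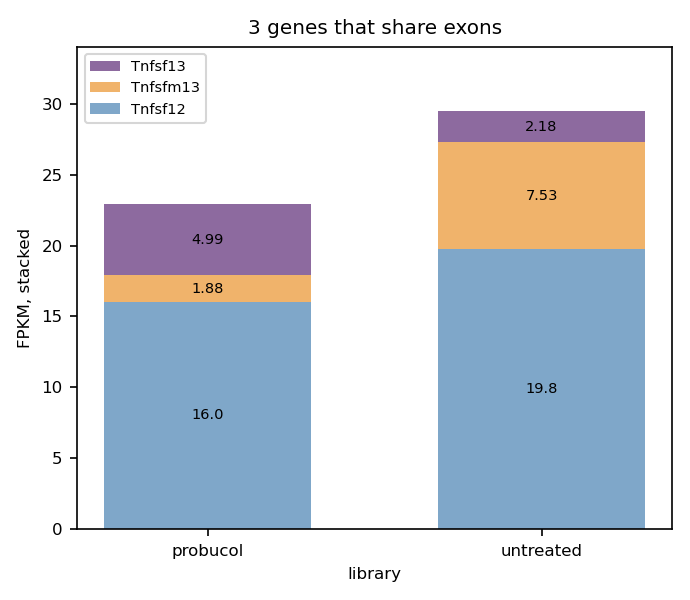
Stacked FPKM (vertical axis from 0) of Tnfsf12, Tnfsfm13 and Tnfsf13 in the probucol library and the untreated library. Tnfsfm13 is smaller with probucol (1.88) than without (7.53), Tnfsf13 is larger with probucol (4.99) than without (2.18), and the whole is 22.9 with probucol and 29.5 without.

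The read-through and Tnfsf13 also start at separate promoters, shown because reads from either start share the same later exons. RefSeq (GRCm38.p6) gives the window of Tnfsfm13 as chr11:69696049-69696348 and that of Tnfsf13 as chr11:69685505-69685804, both on the minus strand, from 250 bases before to 50 bases after the start. The Tnfsfm13 window is set by base 69696098, where 1 of its transcripts with 13 exons starts. The transcript with 11 exons, whose junction is printed above, starts at base 69695809, and the other with 13 exons at base 69695810. RefSeq also places the start of Tnfsf12 at base 69696098, so this window is not particular to the read-through. Neither window holds the NF-kappaB consensus motif, so no letter is in capitals.
Tnfsfm13 promoter: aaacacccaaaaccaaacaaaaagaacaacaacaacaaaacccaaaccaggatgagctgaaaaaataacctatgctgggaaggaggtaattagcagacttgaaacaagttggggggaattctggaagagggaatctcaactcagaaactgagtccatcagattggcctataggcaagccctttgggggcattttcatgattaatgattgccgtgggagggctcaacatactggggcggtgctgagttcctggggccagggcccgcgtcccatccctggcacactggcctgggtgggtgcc
Tnfsf13 promoter: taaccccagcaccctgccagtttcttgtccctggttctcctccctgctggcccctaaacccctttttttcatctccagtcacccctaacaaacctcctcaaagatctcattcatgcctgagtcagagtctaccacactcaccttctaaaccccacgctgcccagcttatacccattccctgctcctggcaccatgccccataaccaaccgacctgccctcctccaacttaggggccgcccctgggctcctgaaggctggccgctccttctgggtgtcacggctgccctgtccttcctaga

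The other 11 ligands, Tnf among them, were too low to compare. Tnf, the founding cytokine of the family, had 0.321 FPKM in probucol-treated heart and 0.383 in untreated heart. By its annotated transcripts these stand for 3 fragments with probucol and 4 without. Tnfsf14, the ligand LIGHT, had 0.0899 FPKM with probucol and 0.564 without, from 1 fragment with probucol and 7 without, and the interval of its ratio was 0.00352 to 1.24. Over the 10 of these ligands with fragment estimates, the sums were 11 fragments with probucol and 13 without, and 7 was the most for any of them. Lta, Cd40lg, Fasl and Tnfsf4 had 1 fragment each in the probucol library and were listed at 0 in the untreated library, and Tnfsf8 had 0.0739 FPKM with probucol and was listed at 0 without. Tnfsf11, the osteoclast factor RANKL, was listed at 0 in probucol-treated heart and at 0.0661 FPKM in untreated heart, and Cd70 at 0 in both. Tnfsf15 had 0.0797 FPKM with probucol and 0.0476 without, and Tnfsf18 had 0.161 with probucol and 0.289 without. A count of 0 allows up to 3 fragments, which for Fasl in the untreated library is 0.235 FPKM and for Cd70 is 0.712 FPKM with probucol and 0.641 without.

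Death-domain receptors included the main TNF receptor, which was lower in the probucol library beyond counting error. Of 7 such receptors, 5 were measured, with a median of -0.40. Among the 5, 3 (60%) lay below 0, against 49.1% of all measured genes. At least 1.5-fold lower was 1 (20%), against 12.0%. Tnfrsf1a, the broadly expressed receptor that carries most TNF signalling (chromosome 6, 125349723 to 125362483), had 32.9 FPKM in probucol-treated heart and 48.5 in untreated heart. These values stand for 427 fragments with probucol and 699 without, and the ratio of 0.679 had an interval of 0.600 to 0.767. Tnfrsf10b, the receptor of TRAIL, had 2.21 FPKM with probucol and 3.65 without, from 44 fragments with probucol and 80 without, with an interval of 0.413 to 0.894. Tnfrsf21, or death receptor DR6, had 6.16 FPKM with probucol and 8.27 without, with a ratio of 0.745 and an interval of 0.597 to 0.926.

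Fas, the receptor of Fas ligand, was an exception at high level. It had 19.7 FPKM in probucol-treated heart and 19.0 in untreated heart, a log2 ratio of 0.05 that turned to -0.10 when both libraries were scaled to the same sum of FPKM. Tnfrsf25, the receptor DR3 of lymphocytes, had 0.822 FPKM from 8 fragments with probucol and 0.668 from 7 without, and its interval of 0.402 to 4.11 includes no difference. Ngfr, the low-affinity neurotrophin receptor, had 0.140 FPKM from 3 fragments with probucol and 0.502 from 12 without, an interval of 0.0503 to 1.03. Edar, a receptor of ectodysplasin, had 5 fragments with probucol and 2 without.

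Receptors that bind TRAFs directly spanned the family's highest and lowest levels. Of 14, 9 were measured, with a median of -0.50, the value of Tnfrsf13b, which rests on few fragments. Below 0 lay 7 (77.8%), against 49.1% of all measured genes, and 4 (44.4%) were at least 1.5-fold lower, against 12.0%. Tnfrsf12a (chromosome 17, 23675445 to 23677449), a receptor known to be induced in injured muscle and vessels, had 72.0 FPKM in probucol-treated heart and 82.8 in untreated heart, a log2 ratio of -0.20. Its transcripts of 640 and 984 bases leave between 206 and 372 fragments with probucol and between 264 and 475 without, so no interval is given. Ltbr, the lymphotoxin beta receptor of stromal and myeloid cells, had 19.7 FPKM with probucol and 23.0 without, and its interval of 0.726 to 1.02 includes no difference.

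Tnfrsf1b, the other TNF receptor, mainly of leukocytes and endothelium (chromosome 4, 145212368 to 145246870), had 7.56 FPKM in probucol-treated heart and 12.0 in untreated heart. It rests on 182 fragments with probucol and 322 without, with a ratio of 0.628 and an interval of 0.521 to 0.756. The level of Tnfrsf1a was 4.36 times that of Tnfrsf1b with probucol and 4.03 times without. Tnfrsf11a, the receptor RANK, had 0.652 FPKM from 21 fragments with probucol and 1.25 from 45 without, an interval of 0.293 to 0.889. Eda2r, another receptor of ectodysplasin, had 1.29 FPKM from 39 fragments with probucol and 2.21 from 74 without, an interval of 0.387 to 0.874.

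The remaining measured receptors of this kind were low. Tnfrsf18, the receptor GITR of regulatory T cells, had 0.561 FPKM with probucol and 1.12 without. By its annotated transcripts this is 2 to 4 fragments with probucol and 5 to 8 without. Tnfrsf13b, the receptor TACI of B cells, had 0.551 FPKM from 2 fragments with probucol and 0.988 from 4 without. Tnfrsf14, the receptor HVEM, was on the other side with 2.18 FPKM from 12 fragments with probucol and 1.56 from 9 without, an interval of 0.573 to 3.98. Tnfrsf19 had 0.663 FPKM with probucol and 0.455 without, with an interval of 0.665 to 3.25. Neither of these higher values exceeded counting error. The lymphocyte receptors Tnfrsf4 and Tnfrsf17 were listed at 0 with probucol and had 1 fragment each without, Tnfrsf13c had 0.0880 FPKM with probucol and was listed at 0 without, and Tnfrsf8 was at 0 in both.

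The 4 receptors grouped as decoys were low, and 3 (75.0%) were at least 1.5-fold lower, against 12.0% of all measured genes. Of these 3, Tnfrsf11b and Tnfrsf22 passed the filter only through their level in the untreated library. Tnfrsf11b, osteoprotegerin, which captures RANKL, had 0.286 FPKM in probucol-treated heart and 0.821 in untreated heart. These are 5 fragments with probucol and 16 without, and the interval of 0.0995 to 0.992 just leaves out 1. Tnfrsf22 and Tnfrsf23, decoy receptors of TRAIL in the mouse, and the related Tnfrsf26 lie close together on chromosome 7. Of their 50-base windows, 27.4% of Tnfrsf22 and 18.0% of Tnfrsf23 also occur in another gene. Tnfrsf22 had 0.145 FPKM with probucol and 0.907 without, which by its annotated transcripts is 2 to 4 fragments with probucol and 14 to 27 without. Tnfrsf23 had 0.971 FPKM with probucol and 2.10 without, and Tnfrsf26 had 0.701 with probucol and 0.629 without. Summed, the 3 had 1.82 FPKM with probucol and 3.64 without, at -0.84, so together they were under the 2-fold limit.

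**Figure D4:**
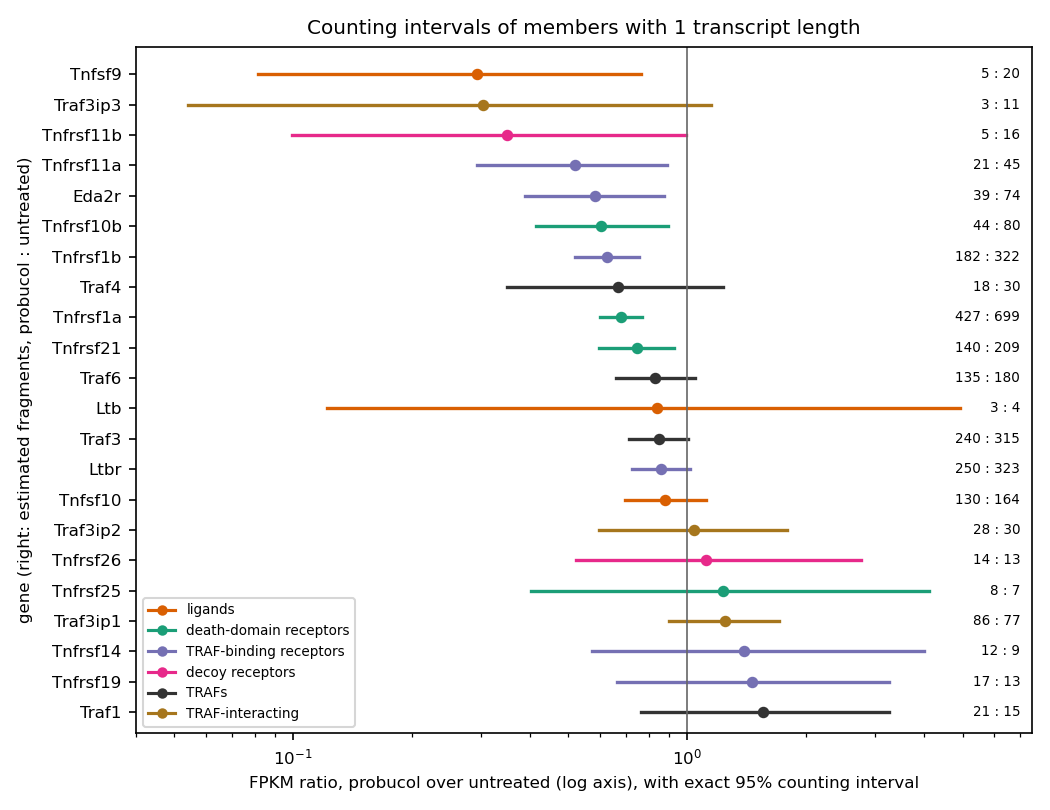
Ratio of FPKM in the probucol library over the untreated library (log axis) for the 22 measured members with fragment estimates; lines are exact 95% intervals for counting error and colours are roles. The fragments are printed at the right, probucol first. The intervals of 8 members lie below 1 and those of 14 include it, while 21.9% of all such genes have an interval below 1 and 20.7% above.

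Of the 22 measured members with fragment estimates, 8 had an interval below 1 and 0 had one above 1. Of the 7128 genes of the files measured with such estimates, which were not screened for shared sequence, 21.9% had an interval below 1 and 20.7% above 1. Whether an interval leaves out 1 depends on depth as well as on the ratio. The 8 were Tnfsf9, Tnfrsf11b, Tnfrsf11a, Eda2r, Tnfrsf10b, Tnfrsf1b, Tnfrsf1a and Tnfrsf21, so 1 ligand and 7 receptors. The 4 TRAFs with fragment estimates, Traf1, Traf3, Traf4 and Traf6, were not among them, and the other TRAFs had no interval.

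TRAF adaptors were close to even, with a small shift shared by most. All 7 were measured, with a median of -0.23. Below 0 lay 6 (85.7%), against 49.1% of all measured genes. At the 1.5-fold limit 0 passed, against 12.0% of all measured genes lower and 5.52% higher. Traf2, the adaptor of both TNF receptor complexes, had 7.15 FPKM in probucol-treated heart and 8.45 in untreated heart. Traf3, which holds back the alternative NF-kappaB pathway, had 5.33 FPKM from 240 fragments with probucol and 6.28 from 315 without, with an interval of 0.713 to 1.005. Traf6, the ubiquitin ligase also used by Toll-like receptors, had 3.39 FPKM with probucol and 4.08 without. Traf7, a member with a divergent carboxy terminus, had 16.0 FPKM with probucol and 18.6 without. Traf4 had 1.44 FPKM with probucol and 2.15 without, and Traf5 had 1.34 with probucol and 2.18 without.

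Traf1, an adaptor that NF-kappaB induces in many cells, was the TRAF above 0. It had 1.48 FPKM in probucol-treated heart and 0.949 in untreated heart, from 21 fragments with probucol and 15 without, and its interval of 0.764 to 3.24 includes no difference. Of the TRAF-interacting genes, Traf3ip1, a ciliary transport protein, had 3.95 FPKM with probucol and 3.17 without. Traf3ip2, the adaptor Act1 of an interleukin receptor, had 1.57 FPKM with probucol and 1.51 without, and its log2 ratio of 0.04 became -0.07 when the libraries were scaled to the same sum. Traf3ip3, found mainly in lymphocytes, had 3 fragments with probucol and 11 without, an interval of 0.0543 to 1.15. Traip, a ubiquitin ligase of DNA replication, had 5 fragments with probucol and 10 without.

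Ligands were set beside their receptors in 25 known pairs, including Cd40 and Cd27, receptors that the symbol rule does not take. In 6 pairs both genes were measured, and in 5 of these both lay below 0. Of all measured members 74.3% lay below 0, against 49.1% of all measured genes. Tnfrsf13b, which rests on few fragments, stands in more than 1 of these pairs, so the count says little about pairing. TWEAK and Fn14 were the most abundant pair. The receptor Tnfrsf12a stood at 4.49 times the ligand Tnfsf12 in the probucol library and 4.19 times in the untreated library. The sequence that Tnfsf12 shares with Tnfsfm13 limits the reading of these ratios. Ltbr stood at 39.1 times Ltb with probucol and 38.0 times without, although Ltb rests on few fragments. For TRAIL the order was the reverse, with Tnfrsf10b at 0.544 times Tnfsf10 with probucol and 0.787 times without. Cd40, the receptor of CD40 ligand on antigen-presenting cells, had 1.64 FPKM with probucol and 2.18 without, and Cd27 had 0.424 with probucol and 0.225 without, beside a Cd70 listed at 0. In most other pairs a measured receptor faced a ligand near detection.

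**Figure D5:**
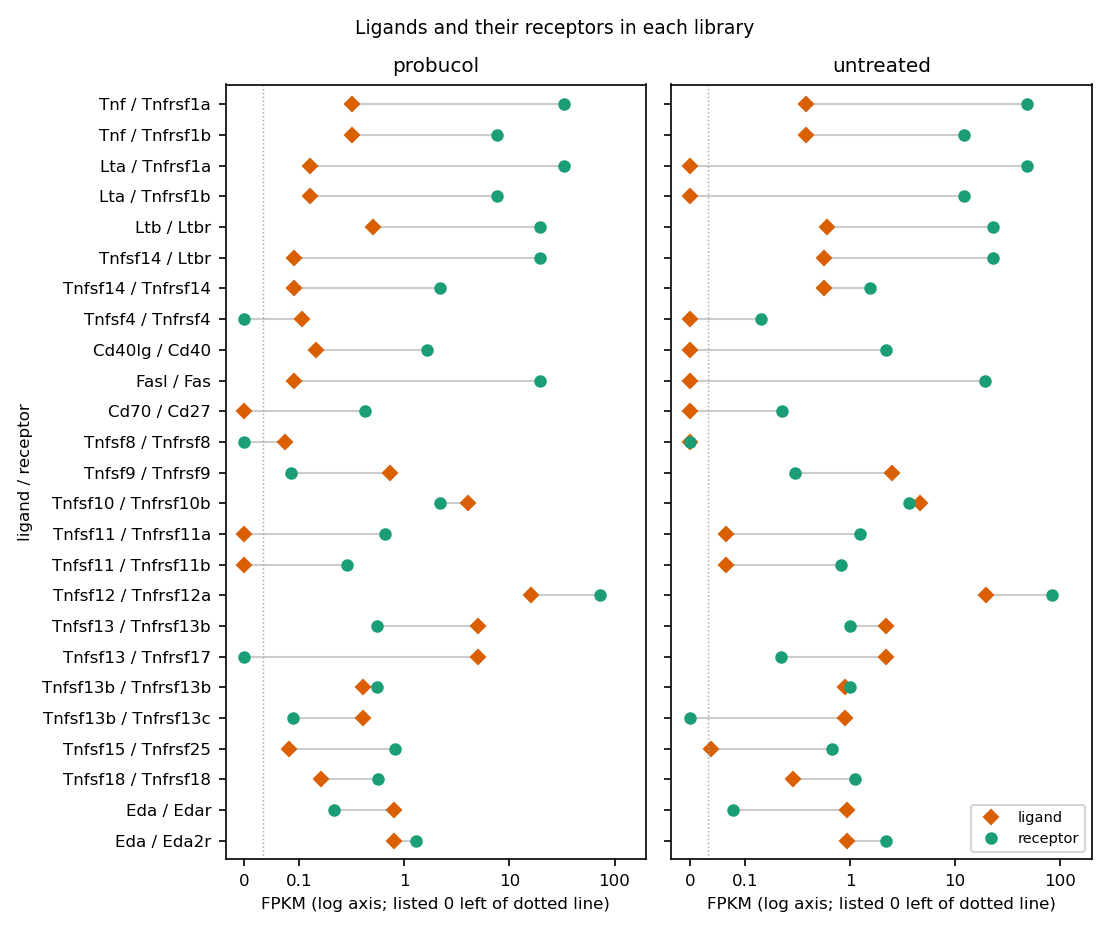
FPKM (log axis) of ligands (diamonds) and receptors (circles) of 25 pairs, with the probucol library at the left and the untreated library at the right; values listed at 0 are drawn left of the dotted line. Receptors of Tnf, Ltb and Fasl lie far right of their ligands in both panels, and the pair of Tnfsf12 and Tnfrsf12a is high in both.

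Downstream of the receptors, most genes of the death adaptor and NF-kappaB lists stayed within 1.5-fold. The list of receptor complexes and death adaptors had a median of -0.12 over 14 measured genes. At the 1.5-fold limit, 4 (28.6%) were lower and 0 higher, against 12.0% of all measured genes lower and 5.52% higher. Ripk3, the kinase that starts necroptosis, had 1.25 FPKM in probucol-treated heart and 3.47 in untreated heart, at -1.18. Mlkl, the pore-forming effector it activates, had 2.90 FPKM from 34 fragments with probucol and 5.74 from 76 without, an interval of 0.322 to 0.754. Casp8, the caspase of death receptors, had 6.22 FPKM with probucol and 12.1 without, and Tradd, the adaptor of the TNF receptor, had 3.30 with probucol and 6.37 without.

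NF-kappaB factors, kinases and inhibitors had a median of -0.21 over 20 measured genes. At the 1.5-fold limit 4 (20%) were lower and 0 higher, against 12.0% of all measured genes lower and 5.52% higher. The 4 were Bcl3 (5.51 FPKM with probucol, 10.3 without), Tnfaip3, the inhibitor A20 (1.84 with probucol, 3.40 without), Nfkbie (1.68 with probucol, 3.06 without) and Relb (5.04 with probucol, 7.96 without). Their log2 ratios ran from -0.84 to -0.61, and their intervals all left out 1, with that of Tnfaip3 at 0.378 to 0.761. All 6 genes of ligand and receptor shedding stayed within 1.5-fold, with a median of -0.20, Rhbdf2 at -0.42 and the TNF-releasing protease Adam17 at -0.23. Of 12 genes that TNF often induces, 6 (50%) passed the 1.5-fold limit as lower, against 12.0% of all measured genes. As higher 0 passed, against 5.52%, and the median of the 12 was -0.60. The furthest were the chemokine Ccl2 at -1.73, Lcn2 at -1.50, the chemokine Cxcl2 at -1.36 and the endothelial selectin Sele at -1.02, and many other signals also induce these genes. Cxcl2 rests on 1 fragment with probucol and 8 without, and its interval of 0.00313 to 1.04 includes no difference. Sod2, the mitochondrial superoxide dismutase and the one gene of the 12 above 0, was named after its values were seen. It had 206.9 FPKM with probucol and 142.0 without, at 0.54, with an interval of 1.41 to 1.51. Of the family genes with other symbols, Relt had -0.45 and Trafd1 0.14.

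Promoters of the members were searched for the NF-kappaB consensus motif on both strands. RefSeq windows of 300 bases (GRCm38.p6) were at hand for 44 members, and 4 of them (9.09%) held a match, against 964 of 17191 genes of the files (5.61%). The matches are shown because some of these genes, such as Ltb, are known NF-kappaB targets, with the motif in capitals in the strand of the gene.
Ltb: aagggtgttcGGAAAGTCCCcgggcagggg
Tnfrsf9: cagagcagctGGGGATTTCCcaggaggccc
Traf3: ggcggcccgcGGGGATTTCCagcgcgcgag
Tnfrsf8: tcaaaacgcaGGGGAGCCCCctgcgtgcgt
The matches begin 87 bases before the start of Ltb, 43 before a second annotated start of Tnfrsf9, 10 before that of Traf3 and 168 before that of Tnfrsf8. In Tnfrsf9 a further match begins 1 base later and overlaps the printed one. The motif lies on the opposite strand in Ltb and Tnfrsf8. Of these genes Traf3 and Ltb were measured, at -0.22 and -0.14, and a match of letters is no evidence of binding.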

How the data were processed

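Total RNA from preserved, frozen heart tissue was made into stranded mRNA libraries, per the labels' protocols. The authors deposited FPKM, with 1 value per gene symbol and library. TopHat2 2.1.1, Bowtie2 and Cuffdiff 2.2.1 are named as tools, and mm10 as the build, in the submitters' processing notes. Annotation, strand setting and how libraries were scaled: none is stated in the labels or files.

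Groups came from the treatment label. Ratios used a pseudocount of 0.5 FPKM and a mean of at least 0.5 FPKM, with limits of 2-fold and 1.5-fold. For genes with 1 RefSeq transcript, and 210 bases subtracted from the length in GENCODE M21, low FPKM fell on steps. Of 1197 low values in the probucol library 74.5%, and of 1132 in the untreated library 75.1%, lay within 0.08 of a whole fragment number. Of 22 member values up to 5.5 fragments, 14 lay within 0.1. Estimates were rounded; 31 members had 1 transcript and 7 had several within 5% of 1 length, an extension made after seeing the data. Members sharing over 10% of 50-base windows with another gene got none. A count of 0 allows 3 fragments. Under some scalings abundant transcripts lower the FPKM of all others, and whether this holds here is not known. Ratios and intervals were tested on simulated data.

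All 54 members are accounted for; of each pathway list up to 4 measured genes furthest from 0 are named. Members and lists were chosen with earlier results of these data known. Alternatives were the pseudocount, the filter, the scaling, the limit and the depth. Python 3.11.15, pandas 2.3.3, SciPy 1.17.1 and matplotlib 3.10.9 were used.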

Additional observations from a re-analysis of the deposited data

How the results depend on the processing

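No paired analysis was possible because each group has 1 library, and for the same reason no library could be left out. The median of the members, -0.24 as reported, was below 0 under every alternative run. Scaling both libraries to the same sum of FPKM gave -0.36 and shifted the median of all genes to -0.13; genes with both 1 annotated transcript and at least 20 fragments gave -0.40. The 2 members at least 2-fold lower became 5 with a pseudocount of 0.1, 1 with a pseudocount of 1, 1 at a mean of at least 1 FPKM, and 1 among those genes of 1 transcript and at least 20 fragments. They became 11 at the 1.5-fold limit. The 1 member at least 2-fold higher, Tnfsf13, became 0 with a pseudocount of 1, with the scaling, and among the genes of 1 transcript and at least 20 fragments, where it was left out for having 2 transcripts. Added after seeing the data, the sum of Tnfsf13 and Tnfsfm13 gave 0 higher, the sum of Tnfrsf22, Tnfrsf23 and Tnfrsf26 gave 1 lower, and both sums together 1 lower and 0 higher. Of 140 single-member values recomputed over 4 settings, 138 kept their sign; those of Fas and Traf3ip2 did not under the scaling, where the endothelial marker median also turned to -0.03 and that of the B cell markers to -0.03. The condition on transcripts and fragments changed 2 choices at once, and the cause of the other shifts was not tested. Members under about 20 fragments in both libraries together could show only large ratios.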
